A study of Mus musculus with 20 samples.

Results

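Heme breakdown and iron handling were described through 9 genes in the abdominal aorta of mice, out of 43422 genes with a value in every library. Hmox1, Blvra and Blvrb encode the enzymes that degrade heme, Slc48a1, Slc11a1 and Slc40a1 encode transporters of heme or iron, and Fth1, Ftl1 and Tfrc encode the ferritin chains and the transferrin receptor. The set was chosen by name, but also on measured values, because Hmox1 had one of the largest increases in Ang II-treated Plod1-/- mice. The comparisons of Ang II-treated Plod1-/- mice with saline-treated Plod1-/- mice, with Ang II-treated WT mice, and the difference between the genotypes in their Ang II response are therefore given for the members as a description, with no p-value. Only the response of WT mice and the comparison of the genotypes under saline were tested for them. These comparisons share their saline-treated Plod1-/- or Ang II-treated WT mice with the descriptive ones.

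The study asked how loss of lysyl hydroxylase 1 (LH1), the collagen-modifying enzyme encoded by Plod1, affects the aortic wall during Ang II infusion. RNA was sequenced from 20 mice, C57BL/6 by the labels and C57Bl/6NCrl by the study's methods, in 4 groups of 5, which were WT mice given saline, WT mice given Ang II, Plod1-/- mice given saline and Plod1-/- mice given Ang II. Ang II was given by subcutaneous osmotic pump at 1000 ng/kg per minute, and aortas were taken on day 14. The labels give an age of 6 months, the study's methods give a younger age and state that all mice were male, and no other allele or agent is named for any group. The methods describe littermates from Plod1+/- crosses, a germline deletion that is not limited to one cell type of the wall.

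Heme oxygenase 1, the product of Hmox1, splits heme into biliverdin, carbon monoxide and free iron, and biliverdin reductases then make bilirubin. The iron that is released is stored in ferritin or exported by ferroportin, the product of Slc40a1. Macrophages that engulf red cells carry out much of this work, and Hmox1 is also known as a gene that heme and oxidative stress induce through the BACH1 and NRF2 regulators. The labels hold no measure of haemorrhage for single mice, so Hmox1 could be set only beside the RNA of red cell and macrophage genes in the same libraries. In bulk tissue, fewer cells of a type and less RNA per cell cannot be told apart.

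Values are FPKM, read abundance scaled by the authors for transcript length and library depth, so levels of different genes are compared per length. The FPKM sum of a library lay between 344207 and 437790. No read counts entered the work and sequencing depth is unknown, although the spacing of the lowest values put the relative depth of the libraries between 0.919 and 1.06. Plod1 was at 22.8 FPKM or more in every WT mouse and at 0.0415 FPKM or less in every Plod1-/- mouse. Saline-treated Plod1-/- replicate 5 and Ang II-treated Plod1-/- replicate 1 held Xist RNA at 15.1 and 7.93 FPKM, which goes against a male label, while the other 18 libraries held at most 0.0328 FPKM. The fold changes of the members and the sums of markers that rest on these libraries are given with and without them, and the other values include them. The smooth muscle genes Acta2 and Myh11 reached 17685 and 1522 FPKM, as an aortic wall should, but Tagln lay only between 1.46 and 12.2 FPKM, which limits comparisons of level between genes. Differences are given on the log2(FPKM + 1) scale, which understates the change of weakly expressed genes, and a differentially expressed gene (DEG) is one that passed 0.05 in adjusted p-value by limma while its fold change exceeded 1 in size on that scale.

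The iron regulatory proteins bind a hairpin called the iron-responsive element in the transcripts of ferritin, ferroportin and the transferrin receptor, and this control acts on translation and mRNA stability. These hairpins are shown because they tie Fth1, Ftl1, Slc40a1 and Tfrc to one control, while their RNA levels moved differently in the mice. The search asked for a C, then 5 bases, the loop CAGTGN and 5 more bases on the transcript strand, with at least 4 of the 5 flanking pairs complementary (G to T counted as a pair). The sites lie in GENCODE mouse release M21 transcripts on GRCm38, and capitals mark the 6 bases of the loop.
Fth1, 5′ UTR, chr19:9982732-9982761, plus strand: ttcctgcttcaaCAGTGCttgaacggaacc
Ftl1, 5′ UTR, chr7:45459778-45459807, minus strand: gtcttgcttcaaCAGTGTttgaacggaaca
Slc40a1, 5′ UTR, chr1:45925464-45925493, minus strand: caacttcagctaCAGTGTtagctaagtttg
Tfrc, 3′ UTR, chr16:32631219-32631248, plus strand: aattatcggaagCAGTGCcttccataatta
Tfrc, 3′ UTR, chr16:32631598-32631627, plus strand: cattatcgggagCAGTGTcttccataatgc
Tfrc, 3′ UTR, chr16:32631663-32631692, plus strand: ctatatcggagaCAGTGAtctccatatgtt
Tfrc, 3′ UTR, chr16:32631710-32631739, plus strand: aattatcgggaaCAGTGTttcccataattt

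All 7 sites had 5 of 5 flanking pairs. The Fth1 and Ftl1 sites were the same at 26 of 30 bases, whereas the Fth1 and Slc40a1 sites were the same at 13. The search found 1 site each in the 5′ UTRs of Fth1, Ftl1 and Slc40a1, 4 in the 3′ UTR of Tfrc, and none in the UTRs of the other 5 members. The same pattern occurred in the 5′ UTR of 205 of 20580 genes (0.996%) and in the 3′ UTR of 872 of 20978 genes (4.16%). A match is a description of the letters and not a measured binding site.

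Hmox1 (ENSMUSG00000005413, GRCm38 chromosome 8 from 75093621 to 75100589, plus strand) had the widest range of the 9 genes in absolute FPKM after Fth1. Its FPKM in replicates 1 to 5 was 17.9, 26.8, 13.0, 22.4 and 30.4 in saline-treated WT mice. WT mice given Ang II had 73.9, 11.7, 11, 12.4 and 13.6 FPKM. Saline-treated Plod1-/- mice had 10.3, 15.1, 11.3, 7.87 and 7.38 FPKM. In Ang II-treated Plod1-/- mice they were 218, 1385, 1391, 1516 and 602. Every Ang II-treated Plod1-/- mouse lay above all 15 other mice, and replicate 1, the lowest of them, still exceeded the highest WT value. The remaining groups overlapped one another.

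The mean FPKM of Hmox1 was 1023 ± 578 (SD, n = 5) in Plod1-/- mice given Ang II and 10.4 ± 3.12 (SD, n = 5) under saline, a 98.2-fold ratio of means. The log2 fold change was 6.22 ± 0.50 (SE), the second largest increase among the 12333 genes fitted. Against Ang II-treated WT mice, at 24.5 ± 27.6 FPKM (SD, n = 5), it was 5.47 ± 0.64 (SE) and again the second largest increase. Without the libraries that held Xist RNA these values were 6.60 and 5.95. Hmox2, the constitutive heme oxygenase that was no member of the set, had mean FPKM of 16.3 ± 2.16, 23.3 ± 2.75, 19.5 ± 3.11 and 26.3 ± 7.14 (SD, n = 5 each), in the order WT saline, WT Ang II, Plod1-/- saline and Plod1-/- Ang II.

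**Figure D1:**
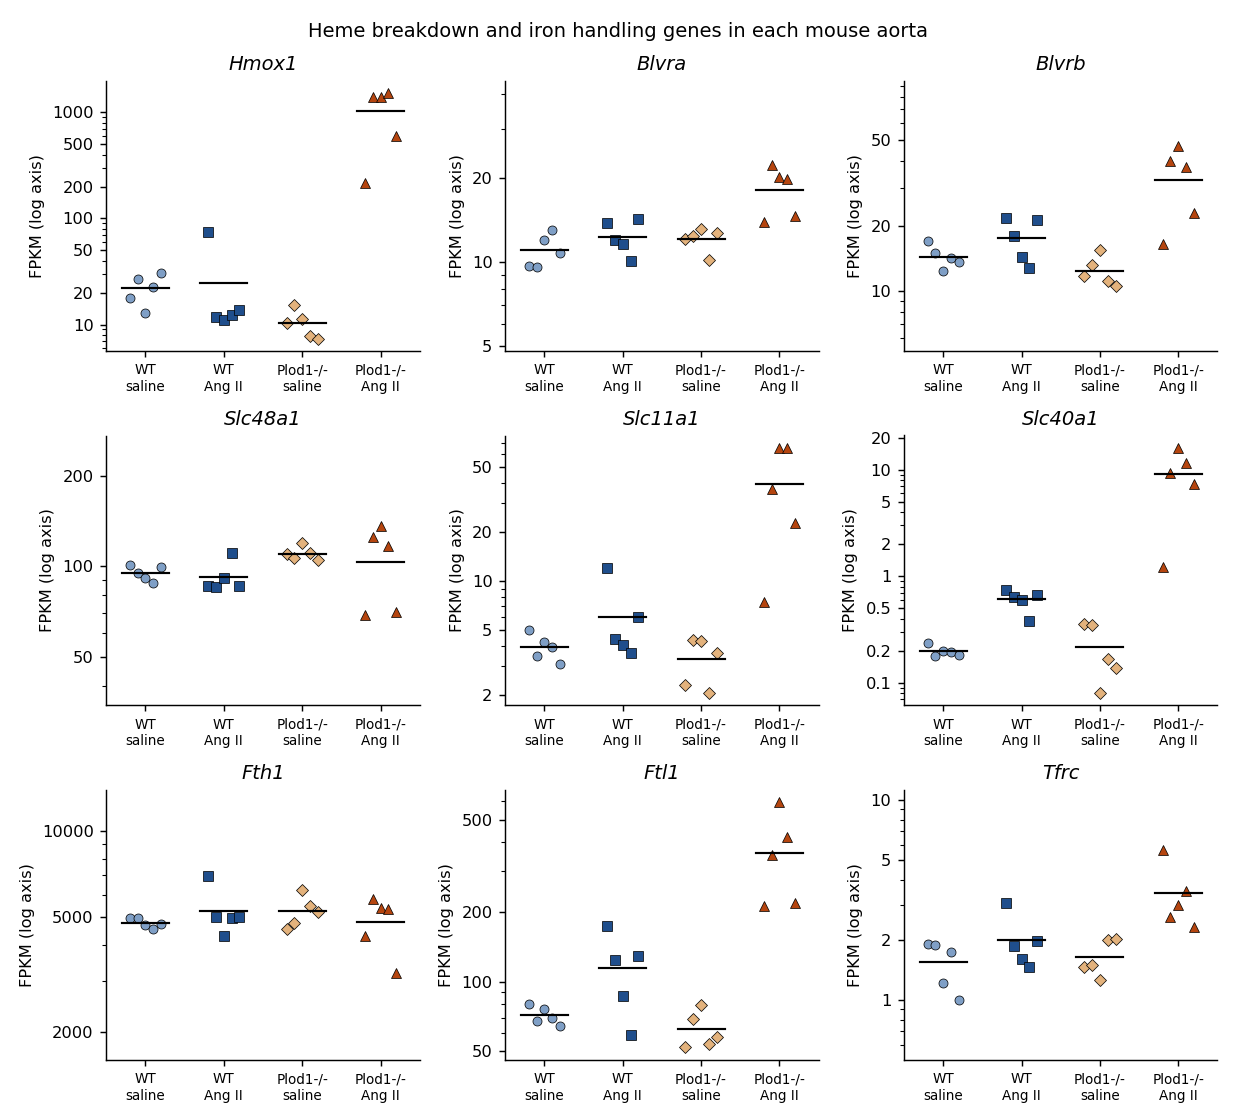
FPKM of the 9 genes in each mouse on log axes, with 5 mice per group and a line at the group mean. Hmox1, Slc40a1 and Ftl1 of every Ang II-treated Plod1-/- mouse lie above all other mice, whereas Fth1 and Slc48a1 overlap between the groups under Ang II.

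The biliverdin reductases moved less than Hmox1. Blvrb (ENSMUSG00000040466, chromosome 7 from 27447978 to 27466144), which encodes biliverdin reductase B, was at 16.6, 40.3, 47.3, 37.5 and 23.0 FPKM in Ang II-treated Plod1-/- mice. It ran from 10.5 to 15.4 FPKM in saline-treated Plod1-/- mice, from 12.3 to 17.1 in saline-treated WT mice and from 12.7 to 21.7 in Ang II-treated WT mice. The Ang II-treated Plod1-/- mice thus lay above all their saline-treated controls, but replicate 1 lay within the range of Ang II-treated WT mice. The log2 fold change was 1.26 ± 0.26 (SE) against saline and 0.80 ± 0.28 (SE) against Ang II-treated WT mice, and without the Xist libraries 1.42 and 1.01. Blvra (ENSMUSG00000001999, chromosome 2 from 127070665 to 127097084), the gene of biliverdin reductase A, ran from 13.9 to 22.2 FPKM in Ang II-treated Plod1-/- mice and from 9.61 to 14.2 FPKM over the other 15 mice. Its log2 fold change against saline-treated Plod1-/- mice was 0.53 ± 0.14 (SE), and 0.63 without the Xist libraries.

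Among the transporters, Slc40a1 and Slc11a1 were far higher in Ang II-treated Plod1-/- mice and Slc48a1 was not. Slc40a1 (ENSMUSG00000025993, chromosome 1 from 45908068 to 45926523) encodes ferroportin, the only known cellular iron exporter. Its FPKM was 1.23, 9.30, 16.1, 11.6 and 7.35 in Ang II-treated Plod1-/- mice and between 0.0804 and 0.359 in saline-treated Plod1-/- mice. The mean was 9.12 ± 5.48 against 0.219 ± 0.127 FPKM (SD, n = 5), a 41.7-fold ratio of means and a log2(FPKM + 1) change of 2.79 ± 0.45 (SE). It passed the filter on low values only through the group in which it was high, and with any Ang II-treated Plod1-/- mouse left out it could no longer be fitted. Without the Xist libraries the means were 11.1 ± 3.76 and 0.239 ± 0.137 FPKM (SD, n = 4).

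Slc11a1 (ENSMUSG00000026177, chromosome 1 from 74375195 to 74386062) encodes a phagosomal metal transporter of macrophages and neutrophils, of which C57BL/6 mice are known to carry a loss-of-function allele. It was at 7.49, 36.7, 65.7, 65.4 and 22.7 FPKM in Ang II-treated Plod1-/- mice and between 2.06 and 4.34 in saline-treated Plod1-/- mice, with a log2 fold change of 2.93 ± 0.51 (SE), or 3.44 without the Xist libraries. In Ang II-treated WT mice it was at 12.1, 4.41, 4.04, 3.63 and 6.00 FPKM, so that WT replicate 1 exceeded the lowest Ang II-treated Plod1-/- mouse. Slc48a1 (ENSMUSG00000081534, chromosome 15 from 97778520 to 97792692), which encodes the heme transporter HRG1 that moves heme out of the phagolysosome, was at 68.8, 125, 136, 117 and 70.5 FPKM in Ang II-treated Plod1-/- mice. These values straddled the 105 to 119 FPKM of the saline-treated Plod1-/- mice, and the log2 fold change was -0.15 ± 0.20 (SE), or -0.034 without the Xist libraries. Slc48a1 overlaps Hdac7, which reached 33.3 FPKM on the opposite strand, and no source used here states that reads were counted by strand, so its level is uncertain.

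The ferritin chains differed from each other. Ftl1 (ENSMUSG00000050708, chromosome 7 from 45457944 to 45459884), the light chain gene, was at 80.2, 67.5, 75.8, 69.4 and 64.2 FPKM in saline-treated WT mice. Under Ang II, WT mice had 174, 124, 86.8, 58.8 and 129 FPKM. Saline-treated Plod1-/- mice had 52.0, 69.1, 79.1, 54.0 and 57.5 FPKM, and Ang II-treated Plod1-/- mice had 212, 350, 595, 419 and 218 FPKM. All 5 Ang II-treated Plod1-/- mice exceeded the other 15, and the log2 fold changes were 2.41 ± 0.28 (SE) against saline and 1.62 ± 0.35 (SE) against Ang II-treated WT mice, and 2.55 and 1.78 without the Xist libraries.

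Fth1 (ENSMUSG00000024661, chromosome 19 from 9980598 to 9985098), the heavy chain gene whose product oxidizes iron before storage, was already at 3193 to 6945 FPKM over the 20 mice. Its group means were 4789 ± 182, 5254 ± 990, 5256 ± 657 and 4803 ± 1054 FPKM (SD, n = 5 each) in that same order of groups. The groups overlapped. Ang II moved Fth1 in Plod1-/- mice by a log2 value of -0.15 ± 0.24 (SE), which turned to 0.036 under quantile normalization and was -0.12 without the Xist libraries. Ftl1 has near-identical copies that were listed on their own, Ftl1-ps1 at 3.78 to 55.2 FPKM and Ftl2-ps at 2.41 to 28.0 FPKM, so reads could be split between them and the level of Ftl1 is uncertain.

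The heavy to light chain ratio, Fth1 FPKM over Ftl1 FPKM, brought these changes together. It was 20.3, 16.5, 9.04, 12.7 and 14.7 in Ang II-treated Plod1-/- mice and between 69.4 and 101 in saline-treated Plod1-/- mice. The means were 14.7 ± 4.2 and 85.6 ± 12.2 (SD, n = 5), a description since Ftl1 belongs to the chosen set, and 13.2 ± 3.21 and 84.3 ± 13.6 (SD, n = 4) without the Xist libraries. Under saline, the mean ratio of WT mice was 67.4 ± 5.88 (SD, n = 5), and 4 of 5 Plod1-/- mice lay above the highest of them. This log2 difference of 0.34 had p = 0.0238 in a two-sided exact permutation test and 0.0476 after Benjamini-Hochberg adjustment over the 2 comparisons tested, and without the Xist library it was 0.31 with an exact permutation p of 0.0317. That adjustment did not cover all genes, and the ratio was not formed under quantile normalization. In Ang II-treated WT mice the ratio was 39.8, 40.2, 49.8, 85.0 and 38.9, below the saline-treated WT range in 4 of 5 mice, with a log2 difference of -0.48 and an exact permutation p of 0.0714 (adjusted 0.0714). Replicate 4 decided that result: without it the difference was -0.68 and the exact permutation p 0.00794. That library also had the lowest mitochondrial share of the FPKM sum in its group, 14.6% against 20.8 to 29.1%. The part of sample make-up in the ferritin ratio was not tested.

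**Figure D2:**
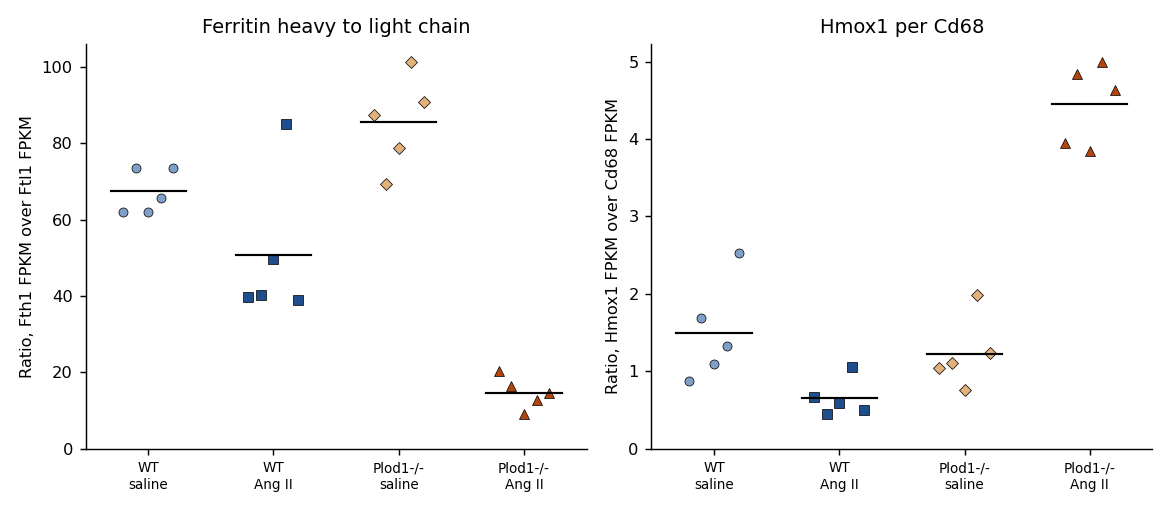
Ratio of Fth1 to Ftl1 FPKM (left) and of Hmox1 to Cd68 FPKM (right) in each mouse, with 5 mice per group and a line at the group mean. The heavy to light chain ratio of Ang II-treated Plod1-/- mice is at most 20.3, and their Hmox1 to Cd68 ratio is at least 3.85 against at most 2.52 elsewhere.

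Tfrc (ENSMUSG00000022797, chromosome 16 from 32608920 to 32632794), the receptor through which cells take up transferrin-bound iron, stayed low. It was at 5.63, 2.62, 3.01, 3.54 and 2.33 FPKM in Ang II-treated Plod1-/- mice and between 1.26 and 2.03 in saline-treated Plod1-/- mice, so these groups did not overlap. Ang II-treated WT mice ran from 1.46 to 3.07 FPKM and overlapped both. The highest value came from replicate 1, the mouse in which Hmox1, Slc11a1, Slc40a1 and Ftl1 were lowest among the Ang II-treated Plod1-/- mice. On the log2 scale Tfrc changed by 0.71 ± 0.18 (SE) with replicate 1 and by 0.60 without the libraries that held Xist RNA.

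Over the set, 5 of 9 members were DEGs with higher expression in Ang II-treated than in saline-treated Plod1-/- mice (Hmox1, Blvrb, Slc11a1, Slc40a1 and Ftl1), beside 8.38% called higher and 5.51% called lower among 12333 genes. The groups did not overlap for 7 members, beside 29.2% of all genes. Against Ang II-treated WT mice 4 were DEGs with higher expression, beside 7.45% higher and 3.67% lower among 12356 genes, and 3 members did not overlap, beside 15.1%. The response of Plod1-/- mice exceeded that of WT mice past the thresholds for 5 members, beside 9.69% higher and 6.36% lower among 13263 genes. Nothing is read from these shares, since the rule used these contrasts. The median log2 fold change of the members was 1.26, 0.80 and 1.01, and that of all genes 0.05, 0.12 and 0.12. No member was a DEG with lower expression in these contrasts.

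**Figure D3:**
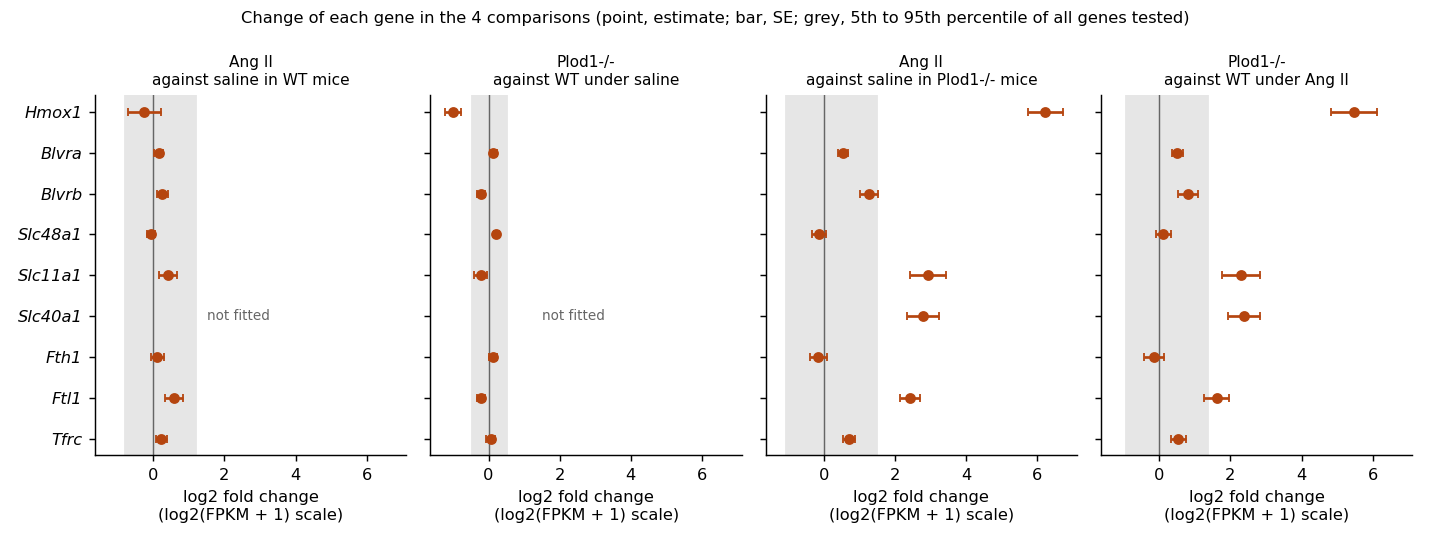
Log2 fold change of each gene on the log2(FPKM + 1) scale in 4 comparisons, with points for estimates, bars for SE and grey bands from the 5th to the 95th percentile of all genes tested. Hmox1, Slc11a1, Slc40a1 and Ftl1 lie beyond the band in both comparisons with Ang II-treated Plod1-/- mice. Under saline only Hmox1 lies beyond it, and in the response of WT mice no gene fitted does.

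In WT mice, Ang II left most of the set near its saline level. None of the 8 members tested was a DEG in limma (6.38% of 11994 genes were called higher and 2.28% lower), and 1 of 8 had an unadjusted p-value below 0.05. That gene was Ftl1, with an increase of 0.59 ± 0.24 (log2, SE) and a limma adjusted p of 0.0743, which ranged from 0.00253 to 0.172 over the alternatives. No member tested had groups that did not overlap, beside 17.3% of all genes. Hmox1 changed by -0.25 ± 0.46 on the log2 scale (SE; adjusted p = 0.671 in limma). Its Ang II-treated WT replicate 1 stood apart at 73.9 FPKM, and without that mouse the change was -0.76 with a limma adjusted p of 0.0233, still short of the fold threshold. Fth1, Slc48a1, Blvra, Blvrb, Slc11a1 and Tfrc changed by -0.05 to 0.40, with limma adjusted p-values of 0.212 to 0.705.

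Slc40a1, below the filter in WT mice, was tested on its own. Its FPKM was 0.238, 0.181, 0.201, 0.194 and 0.183 under saline and 0.749, 0.638, 0.597, 0.383 and 0.674 under Ang II. All 5 Ang II-treated mice lay above all 5 saline-treated mice, with means of 0.608 ± 0.138 and 0.199 ± 0.0230 FPKM (SD, n = 5), a ratio of 3.05. Groups that do not overlap were found for 17.3% of all genes tested in this comparison. With a pseudocount of 0.1 FPKM the log2 difference was 1.22, past the fold threshold. On the log2(FPKM + 1) scale it was 0.42, short of that threshold, so the outcome depends on the pseudocount. The two-sided exact permutation test gave p = 0.00794, the smallest value 5 against 5 mice allow, and 0.0159 after adjustment over the 2 comparisons tested. That adjustment did not cover all genes, unlike the one used for the other members. All of these levels were under 1 FPKM. In the same mice the summed adipocyte markers were 10.7-fold and Cd68 2.51-fold higher by the ratio of means. Cd68 was not a DEG, with 3 Ang II-treated mice above the saline range and 1 below it. Of 14 macrophage markers tested, 1 was called higher (Lyz2) and 1 lower (Mertk). The mitochondrial share of the FPKM sum was 23.3 ± 5.78% under Ang II and 11.1 ± 2.94% under saline (SD, n = 5). The part of these cell types and of the mitochondrial share in the Slc40a1 difference was not tested.

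Under saline, the genotypes differed in Hmox1, which was lower in Plod1-/- mice. The difference on the log2 scale was -1.0 ± 0.24 (SE) with a limma adjusted p of 0.0353, beside 0.358% of 11999 genes called higher and 0.408% called lower. Without the Xist library it was -0.90 with a limma adjusted p of 0.0755. The groups overlapped through a single Plod1-/- value, 15.1 FPKM in replicate 2, which lay above the lowest WT value, 13.0 FPKM in replicate 3. The estimate lay at the fold threshold, and the call was lost in 5 of 7 alternatives and in 7 of 10 fits with a mouse left out, with log2 fold changes from -1.17 to -0.88 and adjusted p-values from 0.0234 to 0.324. Since these saline-treated Plod1-/- mice are also the controls of the large increase by which Hmox1 was chosen, the difference is not independent of that choice.

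The other 7 members tested were not DEGs under saline. Slc48a1 was at 105 to 119 FPKM in Plod1-/- and 87.8 to 101 FPKM in WT mice, and was the only member whose groups did not overlap, beside 9.52% of all genes. The difference was 0.21 ± 0.07 (log2, SE), with adjusted p = 0.0873 in limma, and without the Xist library 0.23 with a limma adjusted p of 0.121. Slc40a1 differed by 0.02 on the log2(FPKM + 1) scale, with an exact permutation p of 0.817, and changed sign in 3 alternatives. Without the Xist library it differed by 0.04.

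Among the Ang II-treated Plod1-/- mice, globin RNA ranked the replicates in another order than Hmox1 did. The summed FPKM of the globin genes Hba-a1, Hba-a2, Hbb-bs and Hbb-bt, which encode the chains of adult haemoglobin, was 1589, 756, 9616, 2366 and 3016 in replicates 1 to 5 of the Ang II-treated Plod1-/- mice. Hmox1 was highest in replicate 4 and the globin sum in replicate 3, and replicate 2 had the lowest globin sum with 1385 FPKM of Hmox1. The sum was 149 to 1424 in saline-treated WT mice, 59.2 to 1506 in saline-treated Plod1-/- mice and 182 to 653 in WT mice given Ang II. The highest of these, 1424 in saline-treated WT replicate 5 and 1506 in saline-treated Plod1-/- replicate 3, came with Hmox1 at 30.4 and 11.3 FPKM. Replicates 1 and 2 of the Ang II-treated Plod1-/- mice, with sums of 1589 and 756, had Hmox1 at 218 and 1385 FPKM. These orders describe single mice, partly in the group by which Hmox1 was chosen. No measure of haemorrhage was at hand to relate globin RNA to. Of 6 red cell genes tested, 5 were DEGs with higher expression in Ang II-treated Plod1-/- mice against both their saline-treated controls and WT mice given Ang II. The shares of all genes called higher were 8.38% and 7.45%. The summed FPKM of all 17 red cell genes in the files ran from 773 to 9750 against 68.3 to 1538 and 194 to 678. Without the Xist libraries the ranges of the Plod1-/- groups were the same. None of the 17 was listed at 0 in all mice of a group, 9 to 11 were under 1 FPKM, and the part of red cell RNA in the Hmox1 increase was not tested.

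Macrophage genes ranked the same mice much as Hmox1 did. Cd68, a lysosomal protein of macrophages, was at 55.2, 286, 362, 303 and 130 FPKM in replicates 1 to 5 of the Ang II-treated Plod1-/- mice and at 110, 26.5, 18.5, 11.8 and 27.3 FPKM in Ang II-treated WT mice. Replicates 2, 3 and 4 were the upper 3 and replicate 1 the lowest Ang II-treated Plod1-/- mouse for Cd68, Hmox1, Slc11a1, Slc40a1, Ftl1 and Blvrb alike. Replicate 1 is the library with Xist RNA, and without it replicate 5 was the lowest for all of these genes. The upper 3 ran 4, 3, 2 for Hmox1, 3, 4, 2 for Cd68 and 3, 2, 4 for Blvrb. Summed neutrophil markers also put replicate 1 lowest, but replicate 5 above replicate 2. The WT mouse in which Hmox1, Slc11a1 and Ftl1 were highest, Ang II-treated replicate 1, also had the highest Cd68 of the 15 remaining mice. Of 15 macrophage markers tested, 14 were DEGs with higher expression in Ang II-treated against saline-treated Plod1-/- mice, beside 8.38% of all genes. Against Ang II-treated WT mice 13 were, beside 7.45%. The summed FPKM of the markers was 1202 to 6262 against 169 to 609 and 448 to 2408. Adgre1 and Csf1r, further defining macrophage genes, had mean FPKM of 33.9 ± 20.5 and 68.2 ± 33.6 (SD, n = 5) in Plod1-/- mice given Ang II and of 2.40 ± 0.949 and 8.77 ± 3.32 (SD, n = 5) under saline. Without the Xist libraries the summed markers ran from 3149 to 6262 under Ang II and from 169 to 609 under saline. In saline-treated Plod1-/- mice 2 of the 15 markers, Ms4a7 and Itgam, were under 1 FPKM in every mouse. Both are among the 14 called and passed the filter only through the group where they were high. No macrophage marker was listed at 0 in a whole group, and the part of macrophage number in these increases was not tested.

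The ratio to Cd68, a measure chosen after the values were seen and given with no test, was higher in every Ang II-treated Plod1-/- mouse than in the other 15 mice for Hmox1 alone among the 9 members. Hmox1 was itself chosen for its large increase. Against saline-treated Plod1-/- mice, Cd68 was 23.4-fold higher by the ratio of means, Adgre1 14.1-fold, Csf1r 7.77-fold and the summed macrophage markers 11.3-fold. Slc40a1 was 41.7-fold higher. Ratios to markers other than Cd68 were not formed, so the statement holds for Cd68 only. Hmox1 FPKM over Cd68 FPKM was 3.95, 4.85, 3.85, 5.0 and 4.64 in Ang II-treated Plod1-/- mice, 0.442 to 1.05 in Ang II-treated WT mice, 0.757 to 1.99 in saline-treated Plod1-/- mice and 0.871 to 2.52 in saline-treated WT mice. The ratio of Slc11a1 to Cd68 was 0.128 to 0.216 in Ang II-treated Plod1-/- mice and 0.110 to 0.603 over the other groups. For Blvrb it was 0.124 to 0.300 against 0.198 to 2.82 elsewhere. For Ftl1 it was 1.23 to 3.84 against 1.59 to 13.6 elsewhere, and for Slc40a1 0.0222 to 0.0566 against 0.00537 to 0.0423. The ratios of Blvra, Slc48a1, Fth1 and Tfrc were 0.0559 to 0.251, 0.376 to 1.25, 14.9 to 78.0 and 0.00832 to 0.102 in Ang II-treated Plod1-/- mice, and reached 2.57, 28.0, 1383 and 0.504 in saline-treated Plod1-/- mice.

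**Figure D4:**
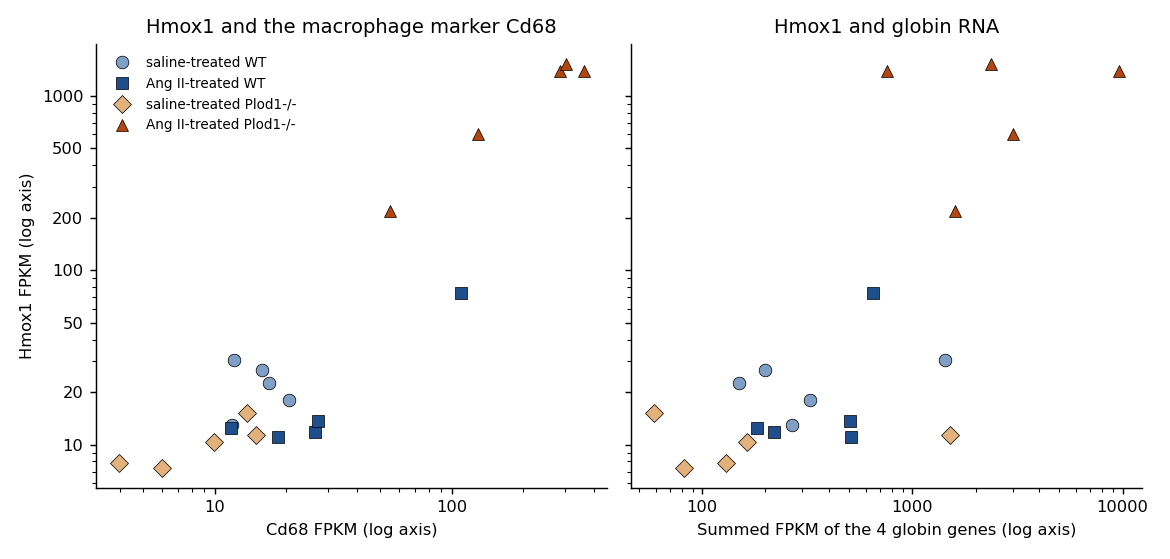
Hmox1 FPKM of each of the 20 mice against Cd68 FPKM (left) and against the summed FPKM of the 4 globin genes (right), all on log axes, with 1 symbol per group. The Ang II-treated Plod1-/- mice rank alike in Hmox1 and Cd68 apart from the upper 3. Mice with globin sums of 1424, 1506 and 1589 have Hmox1 at 30.4, 11.3 and 218 FPKM.

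Neutrophil and smooth muscle markers also differed between the groups. S100a8 and S100a9, which neutrophils express strongly, were at 115 ± 78.9 and 211 ± 145 FPKM (SD, n = 5) in Plod1-/- mice given Ang II and at 0.726 ± 0.260 and 1.04 ± 0.383 FPKM (SD, n = 5) in saline-treated Plod1-/- mice. The summed FPKM of 10 smooth muscle markers was 3077 to 20291 in Ang II-treated Plod1-/- mice and 19593 to 27328 in saline-treated Plod1-/- mice. Replicate 1, with the lowest Hmox1 of the Ang II-treated Plod1-/- mice, had the highest smooth muscle sum, and without the Xist libraries the range under Ang II was 3077 to 7941. The part of these cells in the results was not tested.

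The 5 genes with the pattern most like Hmox1 over the 20 mice were Il1r2, Chil3, Clec4n, Adam8 and Clec4d. Likeness was the mean absolute difference of log2(FPKM + 1) after each gene was centred on its own mean, and it was 0.63, 0.64, 0.65, 0.68 and 0.70 for these genes against a median of 2.17 over 13262 genes. Il1r2, a decoy receptor for interleukin 1, had a mean of 27.7 FPKM in Ang II-treated Plod1-/- mice and of at most 1.27 FPKM in any other group. Among the members, Slc11a1 ranked 111, Slc40a1 154 and Ftl1 251 by this measure, and Slc48a1 ranked 7655. This order is a description, since it rests on the same contrast by which Hmox1 was chosen.

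The rest of the pathway was read from 73 other genes of heme and iron metabolism in the files. In Plod1-/- mice, Ang II raised 14 of 60 genes tested past the DEG thresholds and lowered 2, with a median log2 fold change of 0.36, beside 8.38% of all genes higher, 5.51% lower and a median of 0.05. The 14 include Hpx and Steap1, which were fitted through the group where they were high. The lists below are short, and their counts stand beside the same shares. Without the Xist libraries 18 of these genes were DEGs. Among genes that bind heme or haemoglobin, 3 of 9 were higher in this comparison. Between the genotypes under Ang II, and in the difference between their responses, 0 of 9 were called in either direction. Hp, which encodes haptoglobin and binds free haemoglobin, rose by 5.38 ± 0.79 (log2, SE; limma adjusted p = 0.000455), and Cd163, the haptoglobin-haemoglobin receptor of macrophages, by 2.16 ± 0.60 (limma adjusted p = 0.0140). Hpx, the gene of the heme scavenger hemopexin, was the third gene called, at 2.97 ± 1.54 FPKM under Ang II and 0.632 ± 0.273 FPKM under saline (SD, n = 5). Only 1 saline-treated Plod1-/- mouse reached 1 FPKM, so it was fitted through the group where it was high and is given with no p-value. Cd163 is also on the macrophage list. Of 8 adipocyte markers tested, 3 were called higher in this comparison, beside 8.38% of all genes, and their part in these changes was not tested.

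Among iron uptake genes, carriers and reductases, 4 of 10 were higher in Ang II-treated than in saline-treated Plod1-/- mice. Lcn2, which encodes a siderophore-binding protein of the acute phase, rose by 3.88 ± 0.39 (log2, SE; limma adjusted p = 6.45e-05). Steap4, of a metalloreductase family, rose by 2.29 ± 0.57 (limma adjusted p = 0.00789). Steap1, of the same family, was at 7.49 ± 2.85 FPKM under Ang II and 0.697 ± 0.0699 FPKM under saline (SD, n = 5). No saline-treated Plod1-/- mouse reached 1 FPKM, so Steap1 passed the filter only through the group where it was high and is given as a level with no p-value. Hfe, the haemochromatosis gene, was the 1 of 6 genes of iron export and hepcidin control that was higher, by 1.41 ± 0.37 (limma adjusted p = 0.0101). Heme synthesis contributed 1 of 9 genes, Alas2, the red cell form of its first enzyme, which rose by 2.95 ± 0.76 (limma adjusted p = 0.0101) and is on the red cell list too.

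Of 7 regulators of the NRF2 and BACH1 system tested, 1 was higher, 1 lower and 5 were not DEGs. Bach1, which encodes the heme-sensing repressor of Hmox1, rose by 1.26 ± 0.24 (log2, SE; limma adjusted p = 0.0018) in Plod1-/- mice under Ang II, and Mafk, a small MAF partner of both BACH1 and NRF2, fell by 1.19 on that scale (SE 0.25; limma adjusted p = 0.00339). Of 13 other NRF2 target genes tested, 4 were higher and 1 lower. Mgst1, a microsomal glutathione transferase, rose by 1.80 ± 0.44 (limma adjusted p = 0.0077), Gsr, glutathione reductase, by 1.72 ± 0.28 (limma adjusted p = 0.000853), and Gstm1, a cytosolic glutathione transferase, fell by 2.06 (SE 0.31; limma adjusted p = 0.000487). None of the 6 genes of iron sensing and ferritin turnover was a DEG in limma in this comparison, where 39 of the 60 pathway genes had an unadjusted p-value below 0.05.

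In WT mice 7 of 58 pathway genes tested were DEGs under Ang II, all with higher expression, beside 6.38% of all genes higher and 2.28% lower. They were Alas1 (1.16 ± 0.27) and Alad (1.10 ± 0.22) of heme synthesis, Hp (4.04 ± 0.85), Steap4 (1.21 ± 0.43), and the NRF2 targets Mgst1 (2.31 ± 0.34), Gsta4 (2.07 ± 0.40) and G6pdx (1.18 ± 0.21), as log2 fold changes with SE and limma adjusted p-values of 0.00182 to 0.0459. Adipocyte markers rose in the same comparison, 7 of 7 tested, with a summed FPKM of 1268 to 5384 against 127 to 653 under saline, and their part in these changes was not tested. Hp, Steap4 and Mgst1 were thus DEGs under Ang II in both genotypes. Under saline 1 of 58 genes, Slc22a17, was a DEG with higher expression in Plod1-/- mice (1.01 ± 0.21; limma adjusted p = 0.0277), a call lost without the Xist library (0.99; limma adjusted p = 0.0607).

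Under Ang II, 7 of 61 pathway genes were DEGs between the genotypes, of which 5 were higher and 2 lower in Plod1-/- mice. These counts lie near the 7.45% and 3.67% of all genes and are not a result about the pathway. Alas2 (2.04 ± 0.62; 0.0305), Gsr (1.67 ± 0.35; 0.00743), Bach1 (1.16 ± 0.26; 0.00869) and Slc39a14, a zinc and iron importer (1.15 ± 0.40; 0.0497), were higher, as log2 fold changes with SE and limma adjusted p-values. Slc39a14 lost its call without the Xist libraries (limma adjusted p = 0.0629). Steap1 was the other gene called higher, at 0.603 ± 0.397 FPKM (SD, n = 5) in WT mice, of which 1 reached 1 FPKM, so that it too was fitted through the group where it was high. Gsta4 was lower in Plod1-/- than in WT mice by 1.88 (SE 0.48; limma adjusted p = 0.0150). Gstm1 was lower by 1.53 (SE 0.33; limma adjusted p = 0.00791). For Gsta4 this is a difference between genotypes and not a fall under Ang II. It was not a DEG in the Ang II response of Plod1-/- mice, whereas it rose by 2.07 (log2) in WT mice. The count of 7 grew to 15 without Ang II-treated WT replicate 1 and to 14 without Ang II-treated Plod1-/- replicate 1. Of 8 adipocyte markers tested between these groups, 0 were called higher and 1 lower, Ucp1, at 94.8 ± 50.6 FPKM in Plod1-/- and 1192 ± 609 FPKM in WT mice. The mitochondrial share of the FPKM sum was 13.35 ± 4.57% in Plod1-/- and 23.26 ± 5.78% in WT mice (SD, n = 5). The part of fat tissue and of the mitochondrial share in these gene differences was not tested. The Ang II responses of the genotypes themselves differed for 10 of 62 genes, 8 with a higher and 2 with a lower response in Plod1-/- mice, beside 9.69% and 6.36% of all genes. Being near those shares, these counts too are not a result about the pathway.

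**Figure D5:**
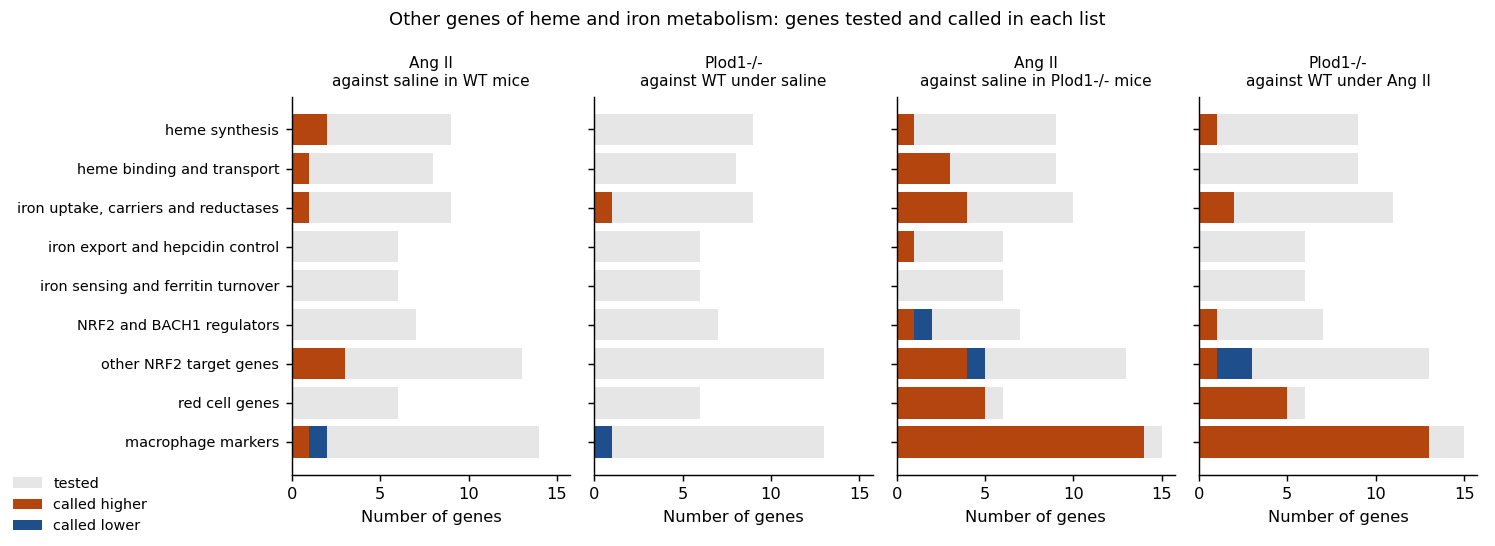
Number of genes tested (grey), called higher (orange) and called lower (blue) in 7 lists of heme and iron genes, in red cell genes and in macrophage markers, in 4 comparisons. The 7 pathway lists hold 16 called genes in the response of Plod1-/- mice and 1 in the comparison under saline. The 16 include Hpx and Steap1, which were fitted through the group where they were high.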

How the data were processed

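RNA of the abdominal aorta of 20 mice was sequenced, 1 library per mouse. The deposited values are FPKM, which the authors obtained with stringtie, cuffquant and cuffnorm from HISAT2 alignments, after discarding ribosomal reads. The submitters' processing notes list HISAT2 2.1.0, Bowtie2 2.2.3 and HTSeq 0.6.0 with build mm10, while the annotation release is not given in the sources used here. Symbols, coordinates and transcript sequences came from GENCODE mouse release M21 (GRCm38), which named 43226 of 43422 genes.

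Groups and replicate numbers were taken from the labels. FPKM were transformed to log2(FPKM + 1), and genes with at least 1 FPKM in at least 5 mice were fitted with limma 3.58.1 (eBayes with a trend, R 4.3.3) on the 10 mice of each comparison, and on all 20 for the difference between responses. For a DEG, the Benjamini-Hochberg adjusted p-value over all genes tested had to be under 0.05 and the log2 fold change over 1 in either direction. The authors name edgeR, which needs read counts and was not run. Exact permutation tests, two-sided, served for the ferritin ratio and for Slc40a1 where it was below the filter. Scripts were first tested on simulated data. The members and lists were chosen with earlier results of these data known. Members were described by role, and at most the 3 largest changes of each list and comparison, with globin genes and defining markers, were named. Same-numbered mice did not deviate together (the correlation was over 0.1 in 1 or 2 of 5 pairs), so the main fits had no block. Each library is a separate mouse by its label, and no litter is given per mouse. Alternatives were a pseudocount of 0.1, no filter, the replicate block, quantile normalization, weights per mouse, all 4 groups in one fit and each mouse left out; leaving out both libraries with Xist RNA was chosen after the data were seen.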

Additional observations from a re-analysis of the deposited data

Results flagged for a closer look

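Each group of 5 mice was checked for a mouse far from the rest by Dixon's test, whose critical value is 0.71, over 48 groups of values, and 9 passed; chance gives about 1 in 20 groups. In Ang II-treated WT mice, replicate 1 was the highest for Hmox1 (73.9 FPKM), Slc11a1 (12.1 FPKM), Fth1 (6945 FPKM) and the summed macrophage markers (2408 FPKM). Replicate 4 of that group was the highest for Slc48a1 (110 FPKM) and for the ratio of Fth1 to Ftl1 (85.0). The summed FPKM of the 4 globin genes was high in a single mouse of saline-treated WT (1424, replicate 5), saline-treated Plod1-/- (1506, replicate 3) and Ang II-treated Plod1-/- mice (9616, replicate 3).

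Of the 62 pathway genes outside the set that were tested, 10 differed between the genotypes in their Ang II response in limma on all 20 mice. Of these, 8 had a higher and 2 a lower response in Plod1-/- mice, beside 9.69% and 6.36% of all genes. Such counts lie near those shares and are not a result about the pathway. As the log2 response of Plod1-/- mice minus that of WT mice, the difference was 2.57 for Alas2, 2.31 for Steap1, 1.70 for Gsr, 1.66 for Slc39a14, 1.47 for Bach1, 1.34 for Txnrd1, 1.17 for Slc25a37 and 1.01 for Fbxl5. It was -2.57 for Gsta4 and -1.57 for Gstm1. Steap1 was under 1 FPKM in all but 1 mouse outside the Ang II-treated Plod1-/- group and passed the filter on low values through that group. For the other 9 genes the limma adjusted p-values ran from 0.000118 for Txnrd1 to 0.0485 for Alas2, and the call of Alas2 was lost without the Xist libraries (2.43; limma adjusted p = 0.0732).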

How the results depend on the processing

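The counts of members called among the DEGs of Ang II-treated Plod1-/- mice were 4 to 5 over the alternatives against saline and 3 to 4 against Ang II-treated WT mice, and the count for the difference between responses fell to 3 of 5 without Ang II-treated Plod1-/- replicate 2, 3 or 4, where Slc40a1 could no longer be fitted and Blvrb fell below the fold threshold. With each mouse left out in turn, that count ran from 3 to 5. The 1 member called under saline, Hmox1, was lost (0 called) with no filter on low values, with the replicate block, with weights per mouse, with all 4 groups in one fit and without the Xist libraries, and with a mouse left out the count ran from 0 to 1. In WT mice the count was 0 in every alternative run. With the replicate block the ferritin ratio under saline kept its difference of 0.34 (p = 0.125) and Slc40a1 in WT mice its 0.42 (p = 0.0625, the smallest that 5 pairs allow), both by exact sign changes.

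Direction changed only for small values. Under quantile normalization Fth1 turned to -0.27 in the response of WT mice, -0.11 under saline, 0.036 in the response of Plod1-/- mice, 0.18 between genotypes under Ang II and 0.28 in the difference between responses. Slc48a1 in the difference between responses turned to 0.077 with weights and 0.019 without the Xist libraries, and ran from -0.21 to 0.037 with a mouse left out. Tfrc under saline ran from -0.024 to 0.11, and Slc40a1 under saline was -0.00067 with a pseudocount of 0.1 and ran from -0.024 to 0.059 with a mouse left out. With a mouse left out, the ferritin ratio in WT mice ran from -0.68 to -0.40, and under saline from 0.27 to 0.41. These ranges do not cover quantile normalization, under which the ratio was not formed. Under saline Fth1 turned to -0.11 in that setting, while Ftl1 lay between -0.21 and -0.17 over the alternatives. The saline difference in the ratio may therefore depend on the normalization. The 7 pathway genes called between genotypes under Ang II became 11 with a pseudocount of 0.1, 18 with weights and 14 without the Xist libraries, and the 10 of the difference between responses became 18 with weights. The median log2 change over all genes went, with quantile normalization, from 0.05 to -0.06 in the response of Plod1-/- mice (915 higher and 837 lower in place of 1034 and 680), from 0.12 to -0.03 between genotypes under Ang II (744 and 612 in place of 920 and 453) and from 0.12 to -0.01 in the difference between responses (1020 and 1095 in place of 1285 and 844). The 1 pathway gene called under saline became 0 with no filter, quantile normalization, weights, one fit or without the Xist libraries. The cause of these shifts was not tested. Depth is unknown, so no detection limit can be given for genes under 1 FPKM such as Slc40a1.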
